A study of Mus musculus with 6 samples.

Results

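MHC class I light chain and peptide loading genes, 8 in number, were described in human leukemic cells recovered from mouse bone marrow: B2M, TAP1, TAP2, TAPBP, ERAP1, HLA-E, HLA-F and NLRC5. They were taken by symbol from a table of 13892 human genes, in which all 8 were present, and all 8 passed the filter on low values. MHC class I molecules carry peptides from inside the cell to its surface, where CD8+ T cells and NK cells read them. Each is a heavy chain held by the light chain beta-2 microglobulin, and it leaves the endoplasmic reticulum once a peptide has been pumped in by the TAP transporter, trimmed by aminopeptidases and fitted with the help of tapasin. Interferons and the transactivator NLRC5 are known to raise the genes of this pathway, and loss of class I from the surface is a known route by which leukemic cells escape T cells.

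RNA was sequenced from 6 libraries of 3 NSG mice, an immunodeficient strain, humanized with hematopoietic stem cells that had been transduced with NPM1c, a mutant nucleophosmin, and that had given rise to acute myeloid leukemia (AML). Each mouse came from its own transduction, and its marrow gave a leukemic stem cell (LSC) library, sorted as GFP+, CD33+ and CD123+, and a bulk leukemic library, sorted as GFP+ and CD33+, so that both populations share the mouse, the transgene and the disease. GFP stood in for NPM1c, no untransduced cells were sequenced, and the bulk gate did not leave out CD123+ cells. Values are read counts scaled by a normalized library size (CPM) and their log2, and changes are LSC minus bulk. That size, recovered from the values, differed from the read total. It was 5840753 against 11420127 reads in bulk replicate 1 and 15773981 against 11220753 reads in LSC replicate 2.

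The libraries held 10669560 to 14933494 reads. Copies of mitochondrial RNA genes in the nucleus, the 10 MTRNR2L rows, took 27.2% to 70.0% of them. The share was highest in bulk replicate 1, which kept 3423878 reads for other genes, against 6132431 to 9571165 elsewhere. IL3RA, which encodes CD123, stood at 48.0 to 139.5 CPM in LSC and at 1.56 to 2.39 CPM in bulk. CD33 stood at 1.19 to 8.07 CPM in LSC and at 4.47 to 13.1 CPM in bulk, so its groups overlapped. Of 12 plasmacytoid dendritic cell markers, IL3RA among them, all 12 rose in LSC, with a summed level of 1882 to 3173 CPM in LSC and 168 to 404 CPM in bulk. LILRA4, one of them, had no read in bulk replicates 1 and 2. Of 8 tested erythroid markers 3 fell, with sums of 21.9 to 131.6 CPM in LSC and 161 to 469 CPM in bulk. Of 9 tested B cell markers 2 fell, PAX5 and EBF1. The sums were 137 to 218 CPM in LSC and 164 to 1133 CPM in bulk, highest in bulk replicate 3. BLNK went the other way without passing (log2 change 2.11) and held 103 to 161 CPM of the LSC sums. Of 8 tested monocyte markers 1 fell, with sums of 1001 to 2629 CPM in LSC and 3534 to 5612 CPM in bulk. None of 7 conventional dendritic cell, 10 T and NK cell or 8 granulocyte markers tested passed. With the mouse as a block 7 erythroid, 5 monocyte, 5 granulocyte and 4 B cell markers fell, 3 conventional dendritic cell markers and 1 B cell marker rose, and the plasmacytoid dendritic cell and T and NK cell counts were as without it. Over all genes tested 2.71% were called higher and 1.33% lower in LSC without the block, and 8.25% and 7.71% with it. CD14, KLF1, CD3D, XCR1 and BATF3 were not analysed here.

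**Figure D1:**
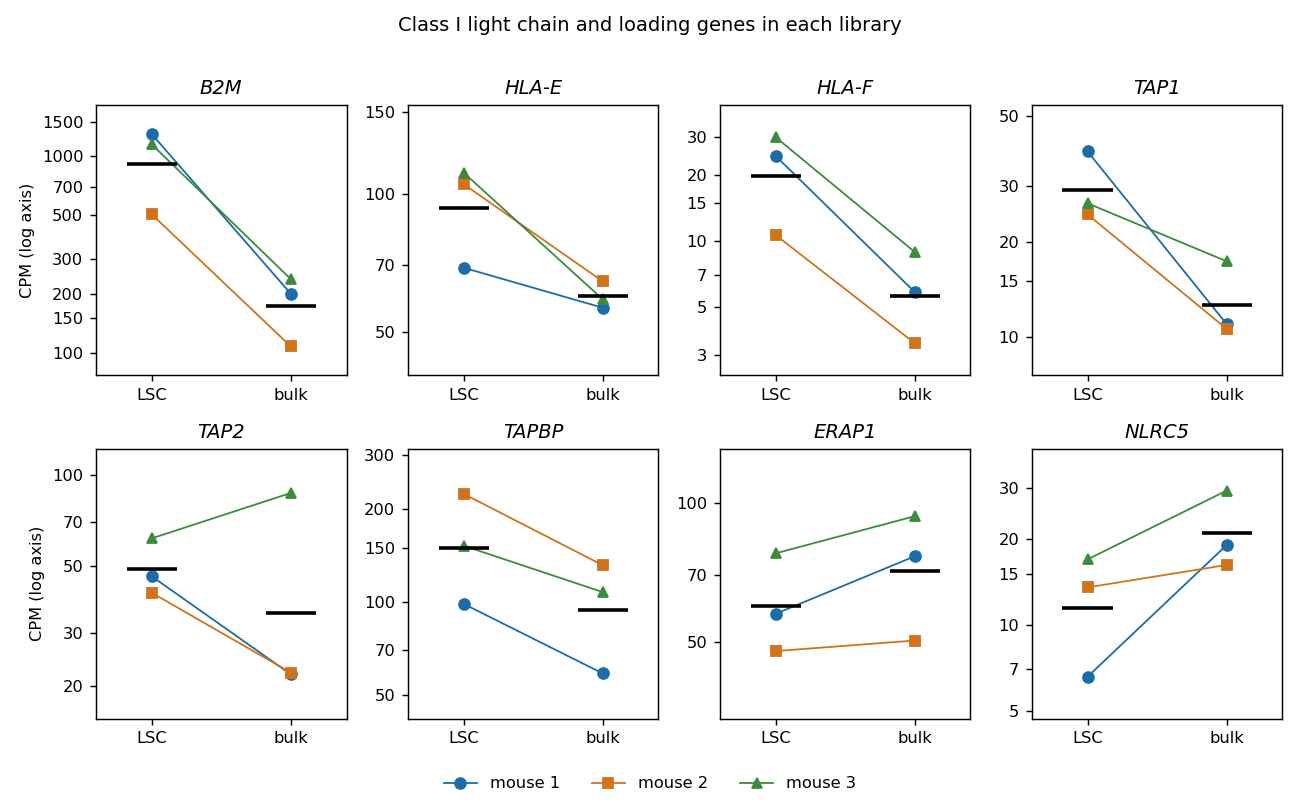
CPM (log axis, scaled separately in each panel) of the 8 genes in each library, LSC at the left and bulk at the right of each panel. Lines join libraries of the same mouse and black bars are geometric means of 3 libraries. All 3 LSC points lie above all 3 bulk points for B2M, HLA-E, HLA-F and TAP1.

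The light chain rose in LSC. B2M, which class I heavy chains need for a stable fold, stood at 1298, 507 and 1150.0 CPM in LSC replicates 1, 2 and 3, against 199, 108 and 237 CPM in bulk replicates 1, 2 and 3. Mouse 2 had the lowest value of each population, and its LSC value was still above every bulk value. The means were 985 ± 421 CPM in LSC and 181 ± 66.4 CPM in bulk (SD, n = 3 each). The log2 change was 2.41 (SE 0.43, 95% interval 1.44 to 3.37), or 5.30-fold, with an adjusted p of 0.0176 from limma across 13755 genes. It was 2.70, 2.24 and 2.28 in mice 1, 2 and 3, a narrower range than that of the levels within either population. A larger change was seen in 2.62% of the genes tested. With the mouse as a block the limma adjusted p was 0.00021. Without the block the call was lost without LSC replicate 1 (limma adjusted p = 0.065), LSC replicate 3 (0.0652), bulk replicate 2 (0.0515) or both libraries of mouse 1 (0.186), and with eBayes run without trend (0.0741), while the change stayed between 2.07 and 2.83. Plasmacytoid dendritic cell markers rose along with it and some erythroid, B cell and monocyte markers fell, and their part in the result was not tested. In sorted populations a change in which cells are present and a change of RNA per cell cannot be told apart.

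The non-classical heavy chains were next. HLA-F, which reaches the surface partly as an open form without peptide and binds receptors of NK cells, stood at 24.6, 10.7 and 29.9 CPM in LSC replicates 1, 2 and 3, against 5.84, 3.41 and 8.91 CPM in bulk replicates 1, 2 and 3. Mouse 2 was again the lowest in both populations, and the groups did not overlap. The log2 change was 1.82 (SE 0.52, 95% interval 0.64 to 3.00) and did not pass (limma adjusted p = 0.0919). It passed once the mouse entered as a block (limma adjusted p = 0.007). The changes were 2.07, 1.65 and 1.75 in mice 1, 2 and 3. HLA-F had the fewest reads of the 8 genes in a single library, 34 in bulk replicate 1, and 410 at most, in LSC replicate 3. Its antisense gene HLA-F-AS1, chosen after its values were seen, had 7.81 ± 1.12 CPM in LSC and 6.82 ± 1.05 CPM in bulk (SD, n = 3 each). Reads of the 2 strands cannot be told apart here, since the sources used here do not give the strand setting of the counting.

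HLA-E presents leader peptides of other class I heavy chains to the inhibitory receptor NKG2A of NK cells and some T cells. It stood at 69.0, 104.8 and 111 CPM in LSC replicates 1, 2 and 3, against 56.5, 64.5 and 58.9 CPM in bulk replicates 1, 2 and 3. The bulk libraries lay close together, and the lowest LSC library, of mouse 1, was just above the highest bulk library. The log2 change was 0.63 (SE 0.29, 95% interval -0.02 to 1.28) and did not pass, with a limma adjusted p of 0.256, or 0.0833 with the mouse as a block. HLA genes are alike in sequence, and how reads were divided among them could move the values of HLA-E and HLA-F.

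The peptide transporter is made of TAP1 and TAP2 in equal number. TAP1 stood at 38.7, 24.4 and 26.5 CPM in LSC replicates 1, 2 and 3, against 11.0, 10.6 and 17.4 CPM in bulk replicates 1, 2 and 3. The groups did not overlap. The log2 change was 1.21 (SE 0.36, 95% interval 0.40 to 2.02) and did not pass (limma adjusted p = 0.103). With the block it passed (limma adjusted p = 0.0325). The change was 1.82, 1.20 and 0.61 in mice 1, 2 and 3. TAPSAR1, an antisense gene near TAP1 and PSMB8 that was also chosen after its values were seen, had 25.3 to 45.8 CPM in LSC and 14.2 to 33.3 CPM in bulk.

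TAP2 stood at 46.2, 40.8 and 61.6 CPM in LSC replicates 1, 2 and 3, against 21.9, 22.2 and 87.0 CPM in bulk replicates 1, 2 and 3. Bulk replicate 3 had the highest value of all 6 libraries, and the groups overlapped. TAP2 had a change of 1.07 and 0.88 in mice 1 and 2 but -0.50 in mouse 3. The log2 change over all libraries was 0.48 (SE 0.52, 95% interval -0.69 to 1.65, limma adjusted p = 0.639), and 1.14 without bulk replicate 3 (limma adjusted p = 0.115). It was 0.32, 0.15 and 0.16 without LSC replicate 3, bulk replicate 1 and bulk replicate 2, and 0.19, 0.29 and 0.98 without both libraries of mouse 1, 2 and 3. With voom and the block it was 0.30. None of these changes passed. Summed B cell markers were also highest in bulk replicate 3, at 1133 CPM against 164 to 253 CPM in the other bulk libraries, and their part in the TAP2 value was not tested.

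TAPBP encodes tapasin, which bridges class I molecules to the transporter and edits their peptides. It stood at 99.0, 225 and 153 CPM in LSC replicates 1, 2 and 3, against 58.9, 132 and 108 CPM in bulk replicates 1, 2 and 3. The groups overlapped and levels differed between mice, but the LSC value was the higher one in each mouse, by 0.75, 0.77 and 0.50 on the log2 scale. The log2 change was 0.67 (SE 0.40, 95% interval -0.23 to 1.57). It did not pass without the block (limma adjusted p = 0.379) and passed with it (limma adjusted p = 0.0479), but not with the mouse as a random effect (limma adjusted p = 0.117). The change was 0.38 without LSC replicate 2 and 0.33 without bulk replicate 1.

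ERAP1, the aminopeptidase that trims peptides in the endoplasmic reticulum, stood at 57.6, 47.8 and 77.8 CPM in LSC replicates 1, 2 and 3, against 76.7, 50.4 and 93.7 CPM in bulk replicates 1, 2 and 3. Each LSC value was below the bulk value of its mouse, but the groups overlapped. The log2 change of -0.25 (SE 0.33, 95% interval -1.004 to 0.50) did not pass, with a limma adjusted p of 0.708, or 0.448 with the block. The change was -0.09, -0.44, -0.50 and -0.06 without LSC replicate 2, LSC replicate 3, bulk replicate 2 and bulk replicate 3, and none of these passed.

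NLRC5, the transactivator of class I promoters, stood at 6.60, 13.5 and 16.9 CPM in LSC replicates 1, 2 and 3, against 19.0, 16.2 and 29.4 CPM in bulk replicates 1, 2 and 3. In each mouse the LSC value was the lower one, with log2 differences of -1.53, -0.26 and -0.80, and the groups overlapped by 1 library, since LSC replicate 3 exceeded bulk replicate 2. The log2 change was -0.86 (SE 0.45, 95% interval -1.86 to 0.14) and did not pass, with a limma adjusted p of 0.313, or 0.107 with the block. Leaving out LSC replicate 1 gave -0.46, and leaving out mouse 1 gave -0.53.

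**Figure D2:**
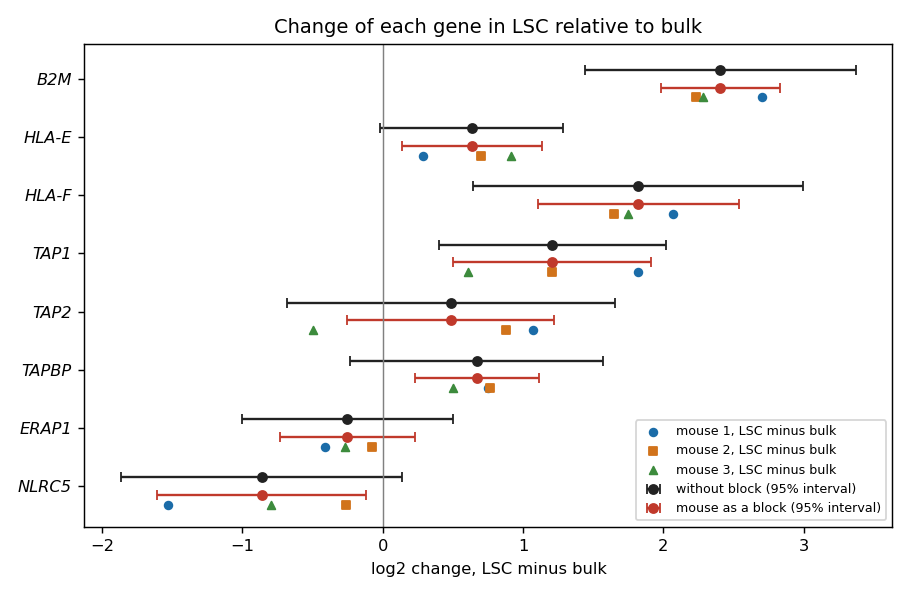
Log2 change, LSC minus bulk, of the 8 genes, with 95% intervals from limma without the block (black) and with the mouse as a block (red), and the change within each mouse (coloured symbols below). B2M at 2.41 and HLA-F at 1.82 lie farthest to the right, and NLRC5 at -0.86 farthest to the left.

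Counted over the 8 genes, 1 rose (B2M), none fell and 7 did not pass without the block, where 2.71% of all genes tested were called higher and 1.33% lower in LSC. With the mouse as a block 4 rose (B2M, HLA-F, TAP1 and TAPBP, the last of them not with the mouse as a random effect) and none fell, where 8.25% of all genes were called higher and 7.71% lower. LSC and bulk libraries did not overlap for 4 of the 8, all with LSC higher, against 13.2% of all genes tested, and for none with LSC lower, against 11.9%. LSC was above bulk in all 3 mice for 5 of the 8 and for 27.3% of all genes, and below bulk in all 3 mice for 2 of the 8 and for 25.8%. The median log2 change was 0.65 over the 8 genes and 0.00 over all genes tested. In mice 1, 2 and 3 it was 0.91, 0.82 and 0.55 over the 8, against 0.09, 0.01 and -0.03 over all genes tested. At an unadjusted p under 0.05, limma had 2785 of the 13755 genes. In the authors' deposited table the log2 fold change, coded there as bulk minus LSC, was -2.41 for B2M with a p-value of 0.0044 and a false discovery rate of 0.178. In the authors' deposited table no other of the 8 had a lower p-value. The p-values of HLA-F and TAP1 were 0.0177 and 0.0465, with false discovery rates of 0.280 and 0.394.

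The genes differed in how their spread was shared between population and mouse. For B2M the populations took 82.8% of the sum of squares of log2 CPM and the mice 16.6%, and for TAP1 the shares were 79.5% and 7.28%. HLA-F and HLA-E had 69.2% and 66.9% between populations. The mouse share was the larger one for ERAP1, with 12.5% between populations and 83.7% between mice. It was also larger for TAP2, with 11.2% and 65.5%, and for TAPBP, with 32.1% and 66.9%. Over all genes tested 41.6% lay between populations and 38.2% between mice. By the mean of both populations, B2M, HLA-F, TAP1, TAP2 and ERAP1 had the same order of mice, lowest in mouse 2 and highest in mouse 3. TAPBP and HLA-E were lowest in mouse 1 and highest in mouse 2, and NLRC5 was lowest in mouse 1 and highest in mouse 3. With 3 mice but fewer populations, the mouse share tends to be larger by construction. The shares were not scaled for this, so a larger mouse share does not by itself mean that mice differed more. These shares are descriptions and carry no test.

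**Figure D3:**
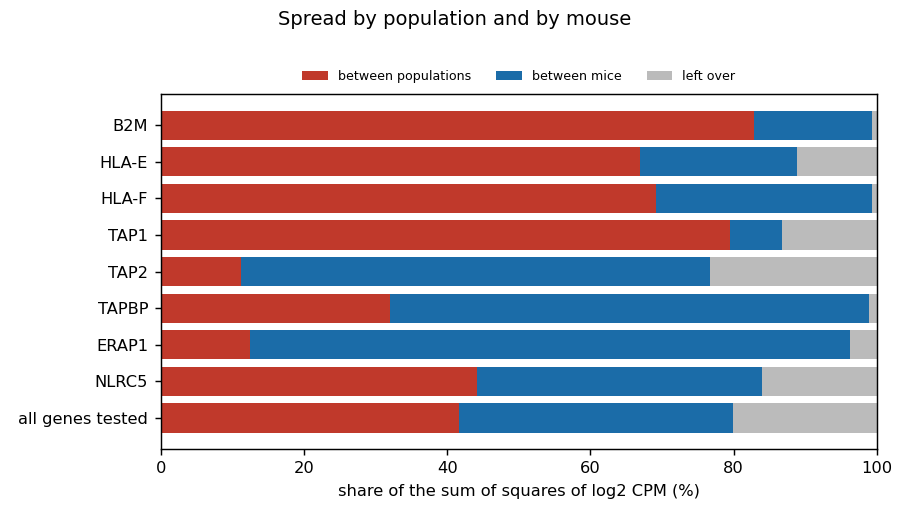
Share (%) of the sum of squares of log2 CPM over the 6 libraries that lies between populations, between mice and in neither, for the 8 genes and for all genes tested. The population share is 82.8% for B2M and 11.2% for TAP2.

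Across the 6 libraries, which share mice and gates, B2M and HLA-F had a Pearson correlation of log2 CPM of 0.98 and B2M and TAP1 one of 0.94. B2M and ERAP1 had a value of 0.00, and B2M and NLRC5 one of -0.60. Among the other genes searched, those most like B2M by the same measure were CD164, LINC00938, FNTA, COX7A2 and PROC, at 0.995 to 0.998. Of these, CD164 and PROC passed (limma adjusted p = 0.0243 and 0.0467). LINC00938, FNTA and COX7A2 did not (limma adjusted p = 0.119, 0.460 and 0.118), and the change of FNTA was 0.41. CD164, a sialomucin of hematopoietic progenitors, had 143 ± 41.6 CPM in LSC and 42.4 ± 10.8 CPM in bulk (SD, n = 3 each). PROC had 7.61 ± 5.71 CPM in LSC and only 0.269 ± 0.143 CPM in bulk, where 1 read was 0.064 to 0.171 CPM. A correlation over 0.9 was reached by 522 genes, 3.80% of those tested.

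The balance between partners was then read within each library, which takes out library scaling. TAP1 minus TAP2 was -0.26, -0.74 and -1.22 in LSC replicates 1, 2 and 3, against -0.999, -1.07 and -2.32 in bulk replicates 1, 2 and 3, as differences in log2 CPM. In each mouse the LSC value was the higher one, by 0.74, 0.33 and 1.11, though the populations overlapped. CPM are not scaled by gene length, so only the difference between libraries can be read, not which partner is the more abundant.

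**Figure D4:**
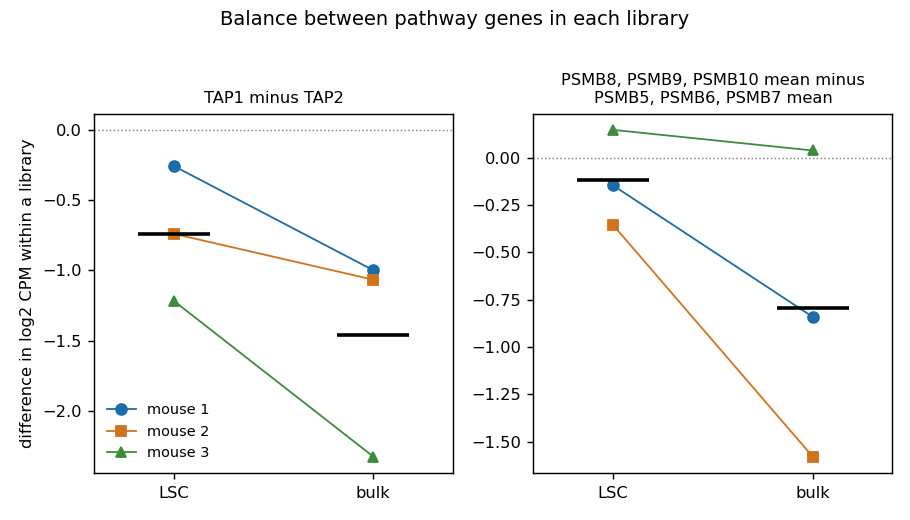
Differences in log2 CPM within each library, LSC at the left and bulk at the right, with lines joining libraries of the same mouse and black bars at the means of 3 libraries. For TAP1 minus TAP2 the LSC libraries lie at -1.22 to -0.26 and the bulk libraries at -2.32 to -0.999, and within each mouse the LSC point is the higher one in both panels.

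Of the other class I heavy chains, HLA-B and HLA-C are described, and neither passed without the block. HLA-B stood at 473, 334 and 611 CPM in LSC replicates 1, 2 and 3, against 155, 167 and 269 CPM in bulk replicates 1, 2 and 3, with no overlap. The log2 change of 1.26 (SE 0.33) had a limma adjusted p of 0.0709, or 0.00429 with the block. HLA-C had a log2 change of 0.28 (limma adjusted p = 0.781), and its groups overlapped. Its changes were 0.25, 0.03 and 0.54 in mice 1, 2 and 3, and 27.3% of all genes were higher in all 3 mice. HLA-G was not analysed here.

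The remaining loading factors gave no call in either direction without the block. TAPBPL, a tapasin relative that edits peptides away from the transporter, had 10.3 ± 2.85 CPM in LSC and 3.82 ± 0.765 CPM in bulk (SD, n = 3 each), a log2 change of 1.42 (limma adjusted p = 0.108, 0.0365 with the block). It was the only one of 7 such genes to pass with the block, where 8.25% of all genes were called higher. CALR, the chaperone calreticulin of the loading complex, had 60.8 ± 10.2 CPM in LSC and 170 ± 122 CPM in bulk, with a log2 change of -1.17 and limma adjusted p of 0.266 and 0.0605 without and with the block. ERAP2 and HSPA5 had log2 changes of -0.55 and -0.21, with limma adjusted p of 0.711 and 0.801. CALR and ERAP2 were lower in LSC in 3 of 3 mice, as were 25.8% of all genes. The changes of CALR were -1.19, -2.28 and -0.05 in mice 1, 2 and 3. The median of the 7 was -0.08.

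The immunoproteasome cuts peptides that suit class I grooves, and PSMB8 and PSMB9 lie beside TAP1 and TAP2 in the MHC. None of 5 genes passed without the block and 1 did with it, where 8.25% of all genes were called higher. PSME2, a subunit of the proteasome activator PA28, had 53.6 ± 25.7 CPM in LSC and 24.6 ± 6.49 CPM in bulk (SD, n = 3 each), a log2 change of 1.02 (limma adjusted p = 0.247, 0.0325 with the block). PSMB8, PSMB9 and PSMB10 had log2 changes of 0.89, 1.05 and 0.96, with limma adjusted p of 0.222 to 0.513 and 0.103 to 0.139 with the block. Each was higher in LSC in 3 of 3 mice, as were 27.3% of all genes. PSMB9, which shares its promoter region with TAP1, stood at only 1.87 to 14.0 CPM in LSC and 1.22 to 5.65 CPM in bulk. The constitutive subunits PSMB5, PSMB6 and PSMB7 that they replace had log2 changes of 0.57, 0.56 and -0.25, none past the test. The mean of the immunoproteasome subunits minus that of the constitutive ones was -0.15, -0.36 and 0.15 in LSC replicates 1, 2 and 3, against -0.84, -1.58 and 0.04 in bulk replicates 1, 2 and 3. Within each mouse the LSC value was the higher one, by 0.69, 1.22 and 0.11, and the populations overlapped.

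Other proteins that pair with the light chain gave no call. Of 8 listed genes 5 were in the table, none passed with or without the block, and the median log2 change was -0.64. CD1C, CD1D and CD1E, of the CD1 family, had log2 changes of -0.64, -1.19 and -1.42 (limma adjusted p = 0.291 to 0.544). Mouse 3 had the largest fall for each, at -1.74, -2.79 and -3.56. The changes were -0.35, -0.31 and -0.90 in mouse 1 and 0.18, -0.46 and 0.19 in mouse 2. FCGRT, the heavy chain of the neonatal Fc receptor, had 15.5 ± 4.40 CPM in LSC and 8.22 ± 4.23 CPM in bulk (SD, n = 3 each), a log2 change of 1.05 that did not pass (limma adjusted p = 0.298).

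Factors that act on class I promoters gave no call without the block among 12 genes tested. With the block 1 was called higher, where 8.25% of all genes were. IRF1, an interferon-induced activator, had 98.6 ± 52.9 CPM in LSC and 51.3 ± 24.2 CPM in bulk (SD, n = 3 each), a log2 change of 0.89 (limma adjusted p = 0.376, 0.0391 with the block). IRF2, a relative that binds the same element, had a log2 change of -0.74 (limma adjusted p = 0.328), and RFXAP and NFYA, subunits of complexes on the class I promoter, had 0.74 and 0.53 (0.311 and 0.350). The median was 0.37.

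Receptors and signalling proteins of the interferon pathway had positive changes in 9 of 9 genes counted. These changes ran from 0.14 to 1.73 with a median of 0.97, and 7 of 9 genes were higher in LSC in all 3 mice. Over all genes tested the change was positive in 49.8%, and LSC was higher in all 3 mice in 27.3%. Without the block 1 of 9 rose, against 2.71% of all genes. STAT2, a part, with IRF9, of the factor that answers type I interferon, stood at 176, 273 and 188 CPM in LSC replicates 1, 2 and 3, against 67.1, 71.7 and 51.3 CPM in bulk replicates 1, 2 and 3. Its groups did not overlap, and the log2 change of 1.73 (SE 0.29) had a limma adjusted p of 0.0139. With the block 4 of 9 rose, against 8.25% of all genes, adding IFNAR2, a chain of the type I interferon receptor, IRF9 and the kinase gene JAK2, with log2 changes of 0.97, 0.97 and 0.97. Their limma adjusted p was 0.102, 0.130 and 0.199 without the block and 0.0282, 0.0452 and 0.0129 with it. Interferon levels were not measured.

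**Figure D5:**
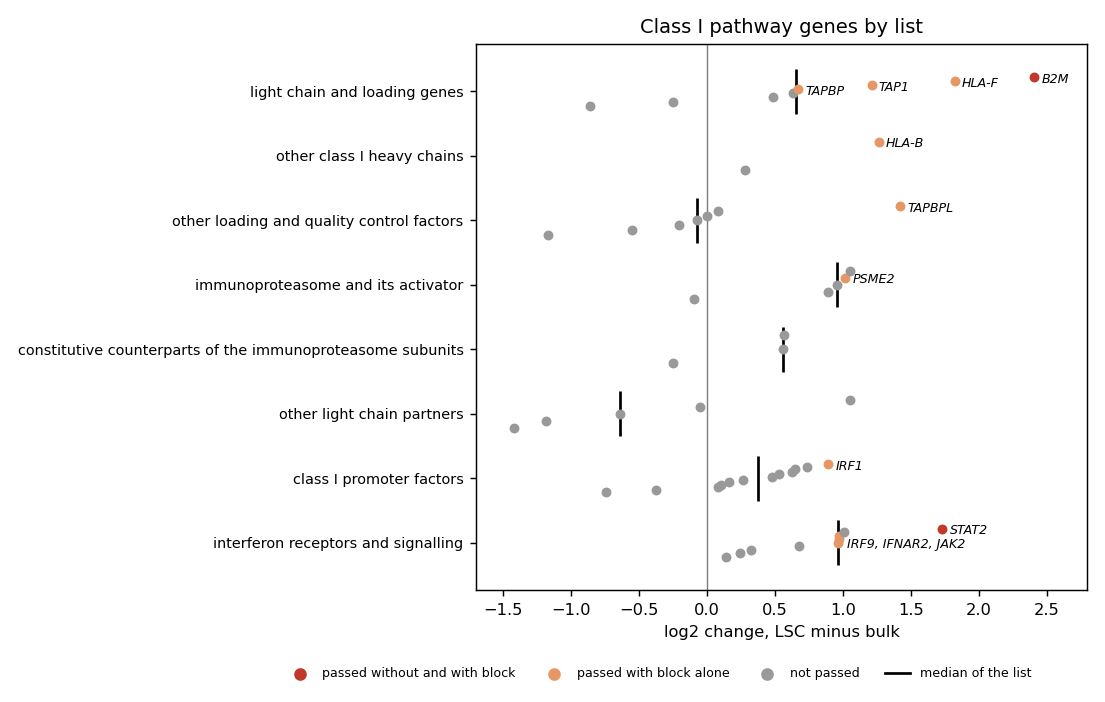
Log2 change, LSC minus bulk, of each gene tested in the 8 described genes (top line) and in 7 other lists of the class I pathway. Colour marks whether the gene passed an adjusted p of 0.05 without and with the mouse as a block, and black ticks are list medians, drawn for lists of 3 or more genes, at 0.65 for the 8 genes and 0.97 for the interferon list.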

How the data were processed

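The authors' deposited table holds log2 CPM per gene and library and, per the file headers, their own comparison (fold change and mean level in log2, a likelihood ratio score, and a p-value with its false discovery rate). RSEM, Bowtie2 and edgeR are the tools, and hg19 the build, in the submitters' processing notes, and RNA was amplified before sequencing, per the labels' protocols. The scale was read from the values: all 6 deposited columns share a floor of 0.0197 CPM and rise in whole steps. Reads recovered from these steps were whole within 0.1 for 100% of values under 1000 reads, and the 8 genes had 34 to 17568 reads per library. They are estimates from amplified RNA, and the floor and the read counts speak to counting error only.

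Genes that reached 1 CPM in 3 or more libraries (13755 of 13892) were compared on the deposited log2 values with limma 3.58.1 in R 4.3.3 (lmFit, eBayes with trend, two-sided, Benjamini-Hochberg over all genes tested, threshold 0.05). CPM values are 2 to the power of the deposited value. The code was tested on simulated reads. A shared replicate number means a shared mouse by design, and deviations of such libraries from group means correlated at 0.33, 0.35 and 0.30, so the number pairs them. No pair of libraries agreed within sampling noise (chi-square per degree of freedom 69.8 or more). With 3 against 3, an exact permutation test cannot go below 0.1.

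The 8 genes and all lists were chosen with earlier results of these data known. Besides the 8, up to 4 genes per list with the largest moderated statistic are named, HLA-B and HLA-C among them, and the 5 genes most correlated with B2M. That search left out HLA genes, immunoglobulin and T cell receptor segments, and sex-linked and presence-variable genes. It also left out MTRNR2L rows, LOC entries and rows with a date for a symbol. Names outside this rule are said to be so. Of the planned lists 2 genes, and a planned balance that used one of them, are not reported here, and list counts and medians leave them out. Alternatives were pseudocounts, filters, scalings, eBayes without trend, voom, the mouse as a block or random effect, and leaving out libraries or mice. Date-like entries replaced 21 symbols and were not matched. No sequences or coordinates of these human genes are given, since the genome annotation at hand is of mouse.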

Additional observations from a re-analysis of the deposited data

How the results depend on the processing

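All 8 genes kept the direction of their change in all 21 alternatives, which each held a change for all 8. The other filters, eBayes without trend, the replicate block and the random effect return the same change by construction. Direction could not turn in those settings, so they do not test it. B2M lay between 2.07 and 2.83 and passed the threshold in 16 of 21, HLA-F and TAP1 passed in 3 of 21 each, TAPBP in 2 of 21 and the other 4 genes in none. The count of the 8 genes called higher in LSC was 1. It was 4 with the replicate block, 4 with voom and the replicate block, 3 with the mouse as a random effect, where TAPBP did not pass, and 0 with eBayes without trend. It was 0 to 1 when a library or a mouse was left out, and 0 without LSC replicate 1, LSC replicate 3, bulk replicate 2 or mouse 1. None of the 8 was called lower in any setting.

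Over all genes, 373 were higher and 183 lower in LSC. These counts were 1135 and 1060 with the replicate block, 1216 and 1217 with voom and the replicate block, 1090 and 983 with the mouse as a random effect, and 197 and 54 with eBayes without trend. Lower genes numbered 302 and 280 with 1 or 5 CPM added before the log. Leaving out 1 library gave 168 to 346 higher and 38 to 169 lower, with 204 and 38 without bulk replicate 1. Leaving out a mouse gave 37 to 252 higher and 0 to 74 lower, with 85 and 8 without mouse 2. The share of calls that were higher was 67.1% without the block and 51.7% with it. Rescaling moved the median change of all genes from 0.00 to between -0.05 and 0.05. Apart from the construction of each setting (fewer libraries, another variance model), the cause was not tested. The lowest count behind a value of the 8 genes was 34 reads, for HLA-F in the shallow bulk replicate 1.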
